A study of Mus musculus with 67 samples.

Results

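RNA of 10 primitive endoderm genes was followed through 5 stages of mouse preimplantation development, with each blastocyst library described on its own. The genes were chosen by symbol, as the rows Gata6, Gata4, Sox17, Sox7, Foxa2, Pdgfra, Dab2, Cubn, Amn and Lrp2 of a deposited expression table of 26414 genes, and all 10 were found. The table holds 67 libraries made by SMART-seq2 from polyA RNA of C57BL/6 embryos. Embryos came from in vitro fertilization with gametes of females 6 weeks and males 10 weeks of age. The light group (34 libraries) was exposed at the 2-cell stage to 5000 lx for 6 h and then kept in the dark, and the control group (33 libraries) was kept in the dark throughout. The control group had 7 libraries of 2-cell embryos, 6 of 4-cell and 4 of 8-cell embryos, 13 of morulae and 3 of blastocysts. The light group had 6, 8, 8, 6 and 6 in the same order. The labels number an embryo for each library, whereas the study's methods describe single cells picked from dissociated embryos, so a library may stand for 1 cell. Nothing in the labels says which libraries came from separate embryos, and the p-values below measure the spread between libraries, which may be smaller than that between embryos.

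The primitive endoderm is the layer of cells that separates from the epiblast within the inner cell mass of the late blastocyst and goes on to form the visceral and parietal endoderm of the yolk sac. FGF4 made by epiblast precursors acts through FGF receptors and ERK on neighbouring cells, in which GATA6 is kept and NANOG is lost. GATA6 is followed by PDGFRA, SOX17, GATA4 and SOX7 in that order. Older endoderm takes up protein and vitamins through megalin (LRP2) and the cubilin and amnionless complex (CUBN and AMN), with DAB2 as their adaptor, and it lays down basement membrane. DAB2, LRP2 and GATA6 are also found in trophectoderm or in earlier blastomeres, so these genes alone do not mark primitive endoderm.

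The values are signals, gene reads scaled by the authors with 1 factor per library, and carry no correction for transcript length. Whole reads were recovered from them. Outside 2 ribosomal RNA genes, which took 54.0% to 89.3% of the reads, a library held 318177 to 2867030 reads. In blastocysts a count of 3 reads, taken as the limit that a count of 0 allows, was a value of 0.961 to 1.93. Such limits cover counting error only. Reads from an antisense gene cannot be told apart from those of Gata6, Sox17, Pdgfra, Dab2 or Cubn, whose exons overlap another gene on the opposite strand by 93 to 804 bases.

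The members fell into abundant genes and genes near or under detection. At least 3 reads were found in 59 of 67 libraries for Gata6 and for Dab2, in 57 for Gata4, 56 for Lrp2, 54 for Cubn, 30 for Amn and 25 for Pdgfra. Sox17, a SOX factor of endoderm, reached 3 reads in 4 libraries and had 80 reads in all. Sox7, a SOX factor of parietal endoderm, reached 3 reads in 3 libraries and had 28 reads in all, each of them in a light blastocyst. Foxa2, a forkhead factor of visceral endoderm and later endoderm, had 0 reads in all 67 libraries. Of the late markers in the list, Sox7 and Foxa2 were thus not detectable in control blastocysts at this depth.

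The DNA upstream of 4 genes is printed because the results below turn on their RNA: Cubn and Pdgfra, which were lower in light blastocysts, and Dab2 and Lrp2, which were higher in light 8-cell libraries. These are the 250 bases before each RefSeq transcription start (build GRCm38.p6), written 5′ to 3′ on the strand of the gene, and capitals mark a match to GATAA, a core letter sequence of GATA factors. Windows were kept for 6 of the 10 genes, with 2 starts for Dab2. GENCODE M21 had 0 transcripts found to start at the windows of Cubn and Pdgfra, against 2 to 3 at the other windows printed. Gata6 is among the genes without a window here, which does not mean that RefSeq lacks an entry for it.
Cubn, chr2:13491877-13492126, minus strand: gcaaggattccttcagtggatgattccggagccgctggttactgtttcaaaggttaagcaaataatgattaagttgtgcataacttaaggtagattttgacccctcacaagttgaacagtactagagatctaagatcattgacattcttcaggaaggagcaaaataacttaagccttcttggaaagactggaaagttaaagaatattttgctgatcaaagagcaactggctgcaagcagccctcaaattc
Pdgfra, chr5:75152001-75152250, plus strand: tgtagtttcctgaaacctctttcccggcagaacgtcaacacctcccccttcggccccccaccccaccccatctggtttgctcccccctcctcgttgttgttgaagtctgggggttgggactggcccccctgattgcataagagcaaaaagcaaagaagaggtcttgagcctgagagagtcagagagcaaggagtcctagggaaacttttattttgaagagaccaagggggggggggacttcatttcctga
Lrp2, chr2:69586030-69586279, minus strand: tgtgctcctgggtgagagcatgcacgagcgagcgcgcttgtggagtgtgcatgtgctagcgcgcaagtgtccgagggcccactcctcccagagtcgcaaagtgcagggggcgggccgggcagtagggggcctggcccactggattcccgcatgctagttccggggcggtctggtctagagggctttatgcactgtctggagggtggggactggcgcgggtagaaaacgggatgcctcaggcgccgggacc
Dab2, chr15:6299539-6299788, plus strand: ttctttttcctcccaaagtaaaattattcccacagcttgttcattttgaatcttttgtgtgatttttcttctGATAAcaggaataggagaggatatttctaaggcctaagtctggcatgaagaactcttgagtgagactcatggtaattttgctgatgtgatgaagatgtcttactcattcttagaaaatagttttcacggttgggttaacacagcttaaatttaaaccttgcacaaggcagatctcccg
Dab2, chr15:6386498-6386747, plus strand: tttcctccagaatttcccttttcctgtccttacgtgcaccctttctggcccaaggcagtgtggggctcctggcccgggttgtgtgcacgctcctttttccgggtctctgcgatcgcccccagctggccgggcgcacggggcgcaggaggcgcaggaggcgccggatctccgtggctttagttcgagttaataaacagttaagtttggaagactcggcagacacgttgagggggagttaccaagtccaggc
Bases G and C made up 39.6% of the Cubn sequence and 66.4% of that of Lrp2. The upstream start of Dab2 had 36.8% and the other start 60%. GATAA or its reverse complement TTATC occurred in 1 of these 5 windows, that of the upstream Dab2 start, and in 22.6% of 32851 RefSeq windows of the same length. ACAATG or CATTGT, letters bound by SOX factors, occurred in none of the 5 windows and in 10.7% of all windows, and GGAATG or CATTCC, letters bound by TEAD factors, in none of the 5 and in 12.6% of all. A match of so few letters is a description of the sequence, and the lack of a match says only that these letters are not in the window.

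**Figure D1:**
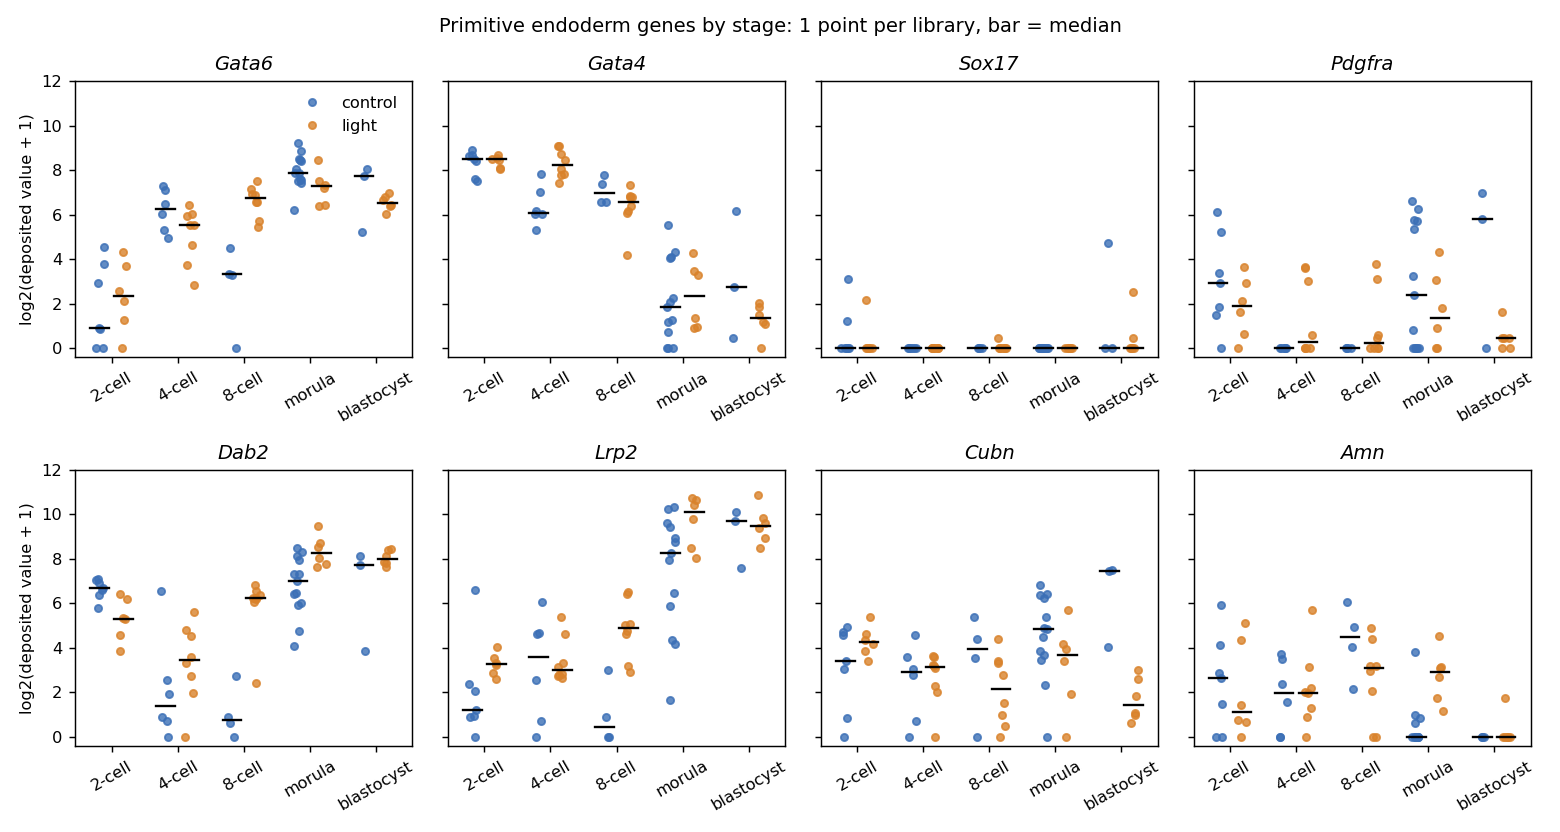
Deposited value of 8 members in each library, as log2(value + 1), by stage, with control libraries in blue and light libraries in orange, 1 point per library and a black bar at the median of each group. Gata4 fell from a median of 356 in control 2-cell libraries to 2.62 in control morulae, Lrp2 and Dab2 were highest in morulae and blastocysts, and Sox17 was at 0 in most libraries.

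The transcription factors had different courses in development. Gata4, a zinc-finger factor that follows Gata6 in endoderm, was highest at the start. Its value in control 2-cell libraries was 179 at the lowest, 356 at the median and 484 at the highest. In control 8-cell libraries it was 164, 216, 94.0 and 92.6, and in control morulae it ran from 0 to 45.3 with a median of 2.62. All control 8-cell libraries thus lay above all control morulae, which held for 2.36% of the genes tested in that step. Light 4-cell libraries (173 to 549) lay above all light 8-cell libraries (17.1 to 158), as for 2.18% of genes in that direction. Medians in the light group were 303, 95.5 and 5.12 in 4-cell libraries, 8-cell libraries and morulae. Light morulae ran from 0.873 to 18.2. Of the light 8-cell libraries only number 5, at 17.1, reached into that range, and the others were at 66.3 to 158.

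Gata6, the earliest factor of the primitive endoderm, rose and fell and rose again in the control group. Its value was 0 to 22.1 in control 2-cell libraries and 29.8 to 154 in control 4-cell libraries, with no overlap, as for 4.45% of genes in that direction. It was 21.3, 9.05, 0 and 8.76 in the control 8-cell libraries, below every control 4-cell library (5.38% of genes) and below every control morula (2.66% of genes). Control morulae ran from 73.8 to 599.9 with a median of 235. In the light group no such dip separated the stages. Its 4-cell libraries ran from 6.08 to 86.1, its 8-cell libraries from 42.7 to 179 and its morulae from 82.2 to 347, each step with overlap.

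Of the endocytic genes, Lrp2 and Dab2 were highest in morulae and blastocysts. Lrp2, which encodes megalin, was 0 to 6.92 in control 8-cell libraries and had medians of 301 in control morulae and 826 in control blastocysts, although the lowest morula, at 2.11, overlapped the 8-cell range. Dab2 was present at the 2-cell stage (54.8 to 133 in control libraries), was at most 5.55 in control 8-cell libraries, and ran from 15.8 to 361 in control morulae, with no overlap in this last step. In the light group Dab2 rose from at most 112 in 8-cell libraries to at least 196 in morulae, and Lrp2 from at most 90.0 to at least 259, neither with overlap, as for 1.2% of genes. Cubn, the cubilin receptor, stayed at or below 40.7 in all libraries up to the 8-cell stage and reached 113 in a control morula and 179 in a control blastocyst. Amn, the partner that carries cubilin to the membrane, was highest early, at 66.0 in a control 8-cell library, and at 0 in 9 of 13 control morulae and all 3 control blastocysts. Cubn and Amn had their highest values in different stages.

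Per length of transcript, the order of the members in control blastocysts, by the median of CPM per kilobase over reads outside the ribosomal RNA genes, was Lrp2 at 67.5, Gata6 at 43.3, Dab2 at 39.0, Cubn at 15.5, Pdgfra at 7.40 and Gata4 at 2.02. The 3 control libraries did not share this order, and it is uncertain throughout. Gata4 stood above Cubn and Pdgfra in control blastocysts 1 (36.8, 24.5 and 25.1) and 3 (2.02, 1.41 and 0) and below both in control blastocyst 2 (0.119, 15.5 and 7.40). In light blastocysts the medians on the same scale were 123 for Lrp2, 87.8 for Dab2, 37.6 for Gata6, 1.11 for Gata4, 0.586 for Sox7, 0.448 for Cubn and 0.0787 for Pdgfra.

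In blastocysts all 3 control libraries had more RNA of Cubn than any light library, and 2 of the 3 had RNA of Pdgfra that was nearly missing from the light libraries, while Gata6, Dab2 and Lrp2 were present in both groups. The comparison asks whether blastocysts that grew from light-exposed 2-cell embryos differed in these genes from control blastocysts. The 3 control libraries differed strongly from each other, and their values are given 1 by 1.

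**Figure D2:**
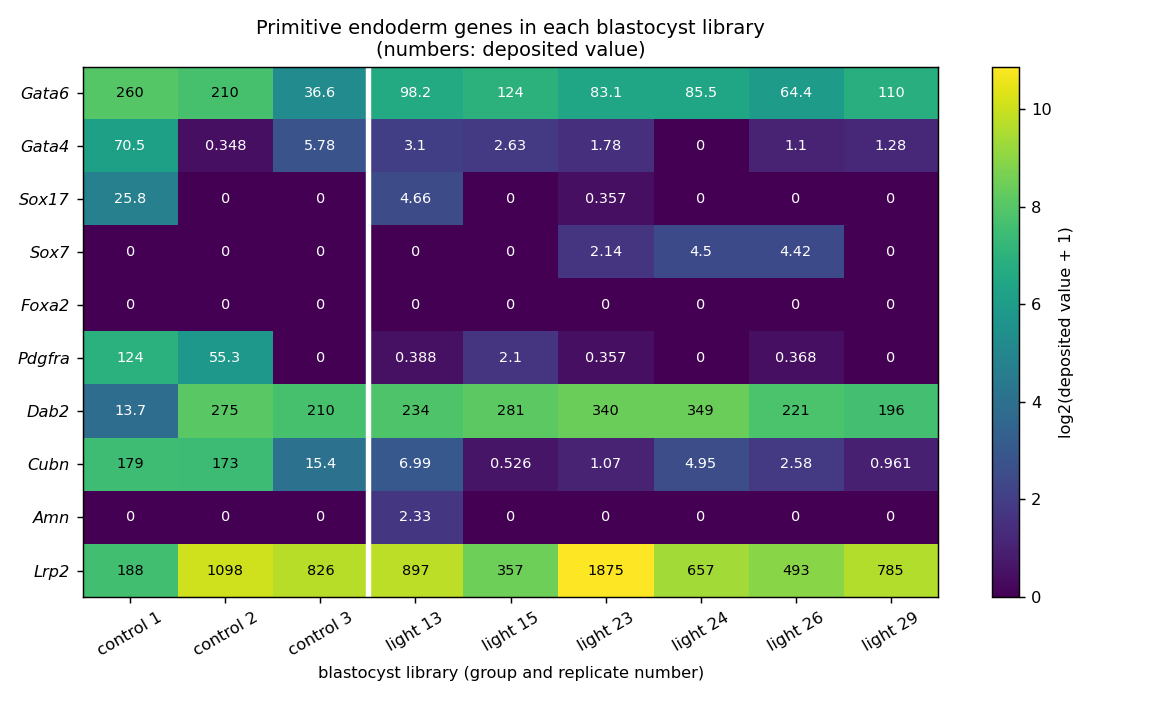
Heat map of the 10 members (rows) in the 9 blastocyst libraries (columns, control 1 to 3 and 6 light libraries by replicate number), with the deposited value written in each cell and log2(value + 1) as colour. Cubn is at 15.4 or more in the control libraries and at 6.99 or less in the light libraries, and Pdgfra is at 124 and 55.3 in control libraries 1 and 2 and at 2.10 or less in the others.

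Control blastocyst 1 held the highest value of all 67 libraries for Sox17 (25.8), Pdgfra (124) and Cubn (179), and it had Gata6 at 259.8 and Gata4 at 70.5, its Gata4 above that of all other blastocysts and all morulae. Its Dab2 (13.7) and Lrp2 (188) were the lowest of the 9 blastocysts. In the same library Nanog, the epiblast factor, was at 249.9, and the trophectoderm genes Cdx2 and Krt8 were at 7.89 and 257, the lowest of the 9. Lama1, the laminin alpha chain of the embryonic basement membrane, was at 312.

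Control blastocyst 2 held RNA of both kinds. Gata6 was at 210.1, Pdgfra at 55.3 and Cubn at 173, where control blastocyst 1 had 259.8, 124 and 179. Sox17 was at 0 and Gata4 at 0.348, which was 1 read. Dab2 was at 275 and Lrp2 at 1098, Dab2 inside the light range and Lrp2 above 5 of the 6 light libraries. These places depended on the scaling. As CPM outside the ribosomal RNA genes, its Dab2 (368) was below all light libraries (562 to 930). Its Lrp2 (1471) was then above light library 15 (802) alone. Nanog was at 302 and Cdx2 at 167 in the same library.

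Control blastocyst 3 had little Gata6 and much trophectoderm RNA. It had Gata6 at 36.6, the lowest of the 9, Pdgfra and Sox17 at 0, and Cubn at 15.4. Dab2 was at 210.0 and Lrp2 at 826, with Cdx2 at 196 and Krt8 at 2836. Nanog was at 65.5, above the highest light value of 20.3.

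The 6 light libraries were alike in most members. Gata6 ran from 64.4 to 124 with a median of 91.9, inside the control range. Dab2 ran from 196 to 349 with a median of 257, and Lrp2 from 357 to 1875 with a median of 721. These 3 genes were abundant in every light blastocyst. Cubn was at 6.99, 0.526, 1.07, 4.95, 2.58 and 0.961 in light libraries 13, 15, 23, 24, 26 and 29. Pdgfra was at 2.10 in light library 15, which was 4 reads, and at 0 or 1 read in the other 5. Gata4 was at 3.10 or less in all 6. Sox7 was found in light libraries 23, 24 and 26, at 2.14, 4.50 and 4.42, and light library 13 was the 1 light blastocyst with over 3 reads of Sox17 (4.66) and of Amn (2.33).

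Tested by limma on log2(value + 1) with Benjamini-Hochberg adjustment over all genes, 2 of the 7 members that passed the filter on low values were lower in light blastocysts, and 0 were higher. Over all genes tested 5.34% were called, 4.98% as lower. The direction of these calls depended on the scaling, with 635 genes lower and 45 higher here, 100 and 107 under median ratio scaling, and 100 and 142 on the CPM scale. Cubn fell by 4.65 on the log2 scale (SE 0.83, adjusted p = 0.00439), from a mean of 122 ± 92.8 (SD, n = 3) to 2.84 ± 2.60 (SD, n = 6), with no overlap between the groups. Groups without overlap and lower in light were seen for 11.9% of genes. On the CPM scale the gap for Cubn was narrow, with control blastocyst 3 at 21.0 (24 reads) and light blastocyst 13 at 16.8 (18 reads). Pdgfra fell by 3.76 (SE 1.04, adjusted p = 0.0365), from 59.6 ± 61.9 to 0.536 ± 0.789, with overlap because control blastocyst 3 had none.

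The other members were not called. The log2 fold changes, light over control, were -0.45 for Gata6 (adjusted p = 0.606 by limma), -1.84 for Gata4 (0.235), 0.40 for Lrp2 (0.652) and 1.48 for Dab2 (0.141). Sox7, at 0 in all control libraries, passed the filter only through light libraries 23, 24 and 26 and had an adjusted p of 0.316. Sox17, Amn and Foxa2 did not pass the filter. The median log2 fold change of all genes was -0.64 in this comparison and -0.03 on a CPM scale outside the ribosomal RNA genes. Relative to the median of all genes, Cubn was at -4.01 and -4.21 in these scalings, Pdgfra at -3.12 and -3.79, and Gata6 at 0.19 and 0.35, so that the sign of Gata6 before this centring depended on the scaling. Dab2 was at 2.12 and 2.30 relative to the median, and on the CPM scale it was called higher (log2 fold change 2.27, adjusted p = 0.0366).

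The call for Cubn held in all 7 other settings and in each of the 9 fits that left out a library (adjusted p up to 0.0450). Without control blastocyst 1 its log2 fold change was -4.06 (adjusted p = 0.0184) and without control blastocyst 2 it was -4.09. The call for Pdgfra was lost in 6 of the 7 settings and kept by edgeR on the recovered reads (log2 fold change -6.37, adjusted p = 0.00723). It rested on control libraries 1 and 2, since without either of them, or without light blastocyst 15, Pdgfra no longer passed the filter, and it was called in 2 of the 6 other fits without a library. On the deposited scale the value of Dab2 rested on control blastocyst 1, without which its log2 fold change was 0.14. On the CPM scale Dab2 was at 27.9, 368 and 286 in control libraries 1 to 3, below all light libraries (562 to 930).

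**Figure D3:**
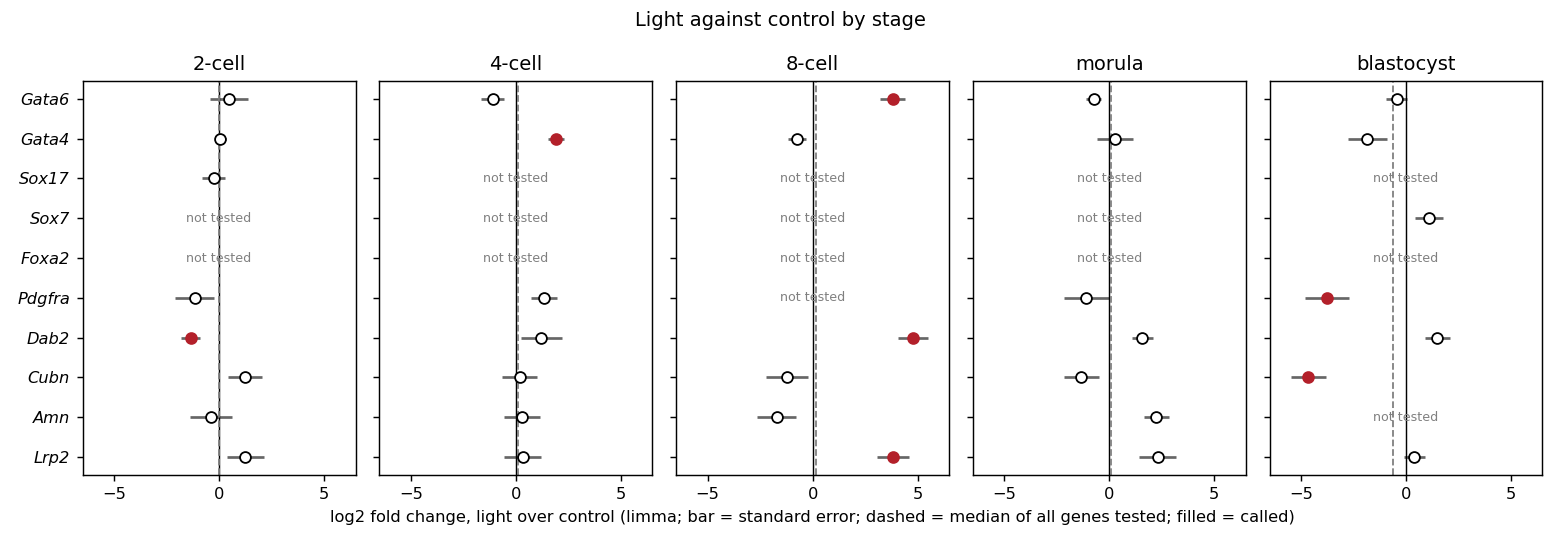
Log2 fold change of light over control for each member at each stage, from limma, with the standard error as a bar, a dashed line at the median of all genes tested and red points for members called. Gata6, Dab2 and Lrp2 are called at the 8-cell stage (3.83, 4.80 and 3.84), Gata4 at the 4-cell stage, Dab2 at the 2-cell stage, and Cubn and Pdgfra in blastocysts.

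Markers of other blastocyst cells also varied between the libraries. Summed over 19 epiblast and inner cell mass genes, the value was 5243, 4250.5 and 2257 in control blastocysts 1 to 3 and 1038 to 2572 in the light libraries. Of the 16 genes tested 8 were lower in light blastocysts and 0 higher, with a median log2 fold change of -2.75. Nanog (-4.48, adjusted p = 0.00243 by limma) and Spp1 (-6.65, adjusted p = 0.000446) were among them, as were Upp1 (-4.90, adjusted p = 0.00865) and Tdgf1 (-4.21, adjusted p = 0.0168). The calls for Nanog, Spp1 and Upp1 held in all 7 other settings and that for Tdgf1 in 4. The sum over 20 trophectoderm genes was 564 in control blastocyst 1, 3826 in control blastocyst 2 and 9053 in control blastocyst 3, and 3252 to 8410.2 in the light libraries. None of 18 was called by limma, with a median of 0.86. The sum over the 10 members themselves did not follow this order, at 861, 1811 and 1094 in the control and 768 to 2304 in the light libraries. Whether the mixture of cells sampled accounts for the values of Cubn and Pdgfra was not tested, and fewer cells of a type and less RNA per cell cannot be told apart in a library.

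The groups also differed in Y-linked RNA. Each control blastocyst library had 1 read on 7 Y-linked genes and the light libraries had 45 to 149, with Eif2s3y (3.69, adjusted p = 0.0101 by limma) and Ddx3y (3.55, adjusted p = 0.0176) called higher. The call for Eif2s3y held in 6 of 7 other settings and that for Ddx3y in 5. The summed Y-linked value was 0 to 0.926 in control 8-cell libraries and 0 to 0.761 in control morulae. In the light group it was 0 to 136 and 0 to 81.1 at these stages. Control 2-cell and 4-cell libraries reached 117 and 317. From how many embryos the control libraries came was not tested. The share of reads on the ribosomal RNA genes was 73.8% to 81.0% in control and 77.8% to 89.3% in light blastocysts. The part of either in the differences between the groups was not tested.

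**Figure D4:**
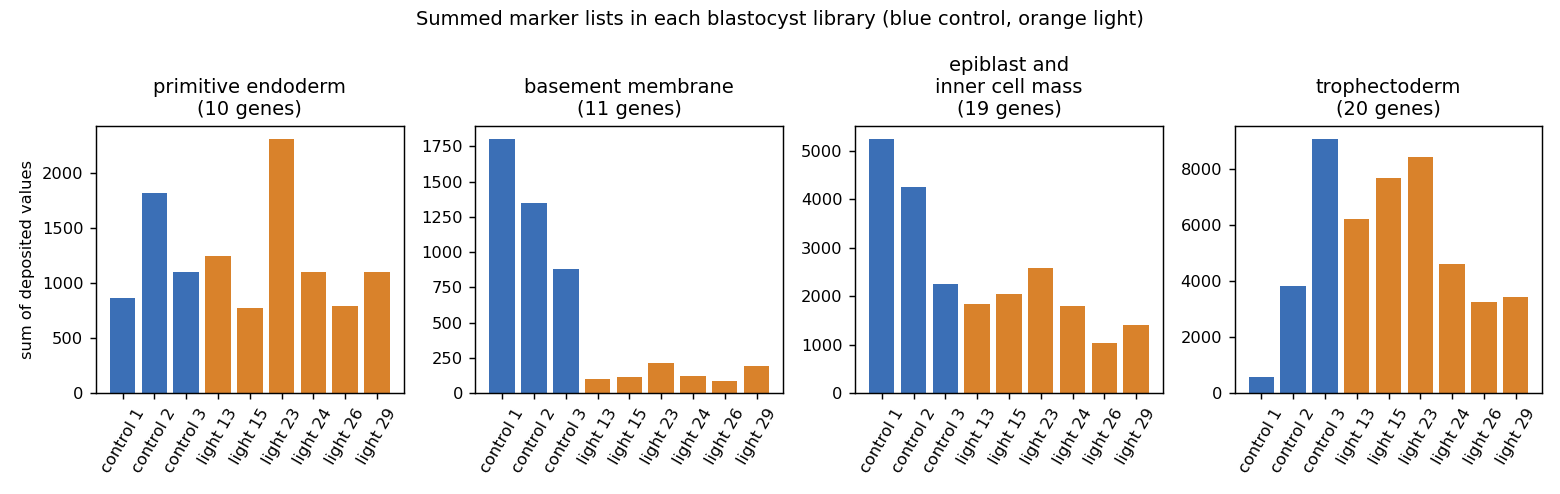
Sum of deposited values over 4 gene lists in each blastocyst library, control in blue and light in orange, 1 bar per library, each panel with its own axis from 0. The basement membrane list is at 879.7 to 1802 in the control and 86.5 to 215 in the light libraries, whereas the sum of the primitive endoderm members overlaps between the groups.

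Basement membrane genes, whose products endoderm secretes in quantity, separated the groups more clearly than the members did. Of 11 such genes 5 were lower in light blastocysts and 0 higher, and their median log2 fold change was -2.36, where that of all genes was -0.64. The laminin beta chain gene Lamb1 was at 159, 328 and 237 in the control libraries and at 3.68 to 17.5 in the light libraries (log2 fold change -4.58, adjusted p = 6.33e-05 by limma). Nid1, which encodes the laminin-binding protein nidogen, was at 288, 218 and 433 against 21.3 to 52.2 (-3.15, adjusted p = 0.0003). Lama1 (-4.45, adjusted p = 0.00998), Lamc1 (-2.26, adjusted p = 0.009) and the fibronectin gene Fn1 (-4.41, adjusted p = 0.0165) were also lower. The calls for Lamb1 and Lama1 held in all 7 other settings, that for Nid1 in 6 and that for Lamc1 in 3. Lamb1 and Nid1 were high in control blastocyst 3, in which Pdgfra and Sox17 were at 0 and Fn1 was at 7.06.

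The other lists of endoderm and its signals gave few calls in blastocysts. Of 16 further genes of extraembryonic endoderm in the table, 8 were tested and 0 called by limma. Of 27 genes of the FGF receptor pathway, 20 were tested and 0 called, with a median log2 fold change of -0.70, near the -0.64 of all genes. Fgf4, the ligand, was at 73.6 at the highest and 0.642 at the lowest in control blastocysts and at most 2.85 in light blastocysts, and it shares its place with the epiblast list. The receptor gene Fgfr2 was at 66.3 to 245 in control and 47.3 to 114 in light blastocysts, and Fgfr1 at 75.8 to 159.7 and 34.7 to 67.7. Of 17 genes tested in the megalin and cubilin pathway, which includes 4 members, Cubn alone was called.

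At the 8-cell stage Gata6, Dab2 and Lrp2 were higher in the light group. Dab2 and Lrp2 each had under 3 reads in 3 of the 4 control libraries, and Gata6 was low but detected in 3 of 4. Gata6 was at 21.3, 9.05, 0 and 8.76 in the control libraries and ran from 42.7 to 179 with a median of 106 in the light libraries, without overlap, as for 3.31% of genes in that direction. Dab2 was at 5.55, 0.532, 0 and 0.834 in the control libraries, and at 66.4 to 112 in 7 light libraries and 4.26 in light 8-cell 8. Lrp2 was at 0, 6.92, 0 and 0.834 in the control libraries and ran from 6.58 to 90.0 with a median of 28.6 in the light libraries. Light 8-cell 8 was thus the lowest light library for Dab2 and Lrp2 and the only one within the control range.

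The log2 fold changes were 3.83 for Gata6 (SE 0.60, adjusted p = 0.000283 by limma), 4.80 for Dab2 (SE 0.71, adjusted p = 0.000164) and 3.84 for Lrp2 (SE 0.77, adjusted p = 0.00261). Thus 3 of 6 members tested were called, all higher, where 9.21% of all genes were called and 5.91% as higher. Over all genes 819 were higher and 457 lower, against 596 and 662 under median ratio scaling. All 3 calls held in the 7 other settings and in the 12 fits without a library. Gata4 (-0.75), Cubn (-1.22) and Amn (-1.72) were not called, with adjusted p of 0.293, 0.468 and 0.255 by limma. Amn was at 29.6, 66.0, 3.48 and 15.4 in the control libraries and at 0 to 28.3 in the light libraries.

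Some genes of other lists were higher in the same libraries. The megalin and cubilin pathway had 5 of 18 genes called higher and 0 lower, but the 5 include the members Dab2 and Lrp2. Lrpap1, the chaperone of megalin, was also among them, with a log2 fold change of 3.11 (adjusted p = 4.68e-07 by limma). Of 23 genes tested in the FGF receptor pathway 1 was called higher, Fgfr1 (3.40, adjusted p = 0.00515 by limma), and 2 lower. The lower genes were Grb2 (-1.24, adjusted p = 0.0136) and Sos1 (-1.12, adjusted p = 0.0234), adaptor and exchange factor of the receptor. Nid1 (4.40, adjusted p = 0.000399) was the 1 gene called of 8 tested in the basement membrane list, and it was higher. Among trophectoderm genes 4 of 8 were called higher and among epiblast and inner cell mass genes 5 of 14, with 0 lower in either list. The summed oocyte and maternal list was 123 to 238 in control and 53.4 to 145 in light 8-cell libraries. Whether the libraries of the groups were of the same age within the 8-cell stage was not tested.

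In morulae the members varied widely within the control group and 0 of 7 were called, with 1.18% of all genes called. Amn was at 0 in 9 of 13 control morulae and at 13.1 in control morula 6, and at 1.26 to 21.8 in all 6 light morulae (log2 fold change 2.25, SE 0.59, adjusted p = 0.0528 by limma). It passed the threshold under 3 of 8 other settings. Dab2 had a median of 129 in control and 313 in light morulae (1.56, adjusted p = 0.109), and Lrp2 of 301 and 1124 (2.30, adjusted p = 0.187). Gata6 was at a median of 235 and 154 (-0.74, adjusted p = 0.318). Nanog, which opposes Gata6 in the inner cell mass, was called lower in light morulae (-3.04, adjusted p = 0.0388).

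**Figure D5:**
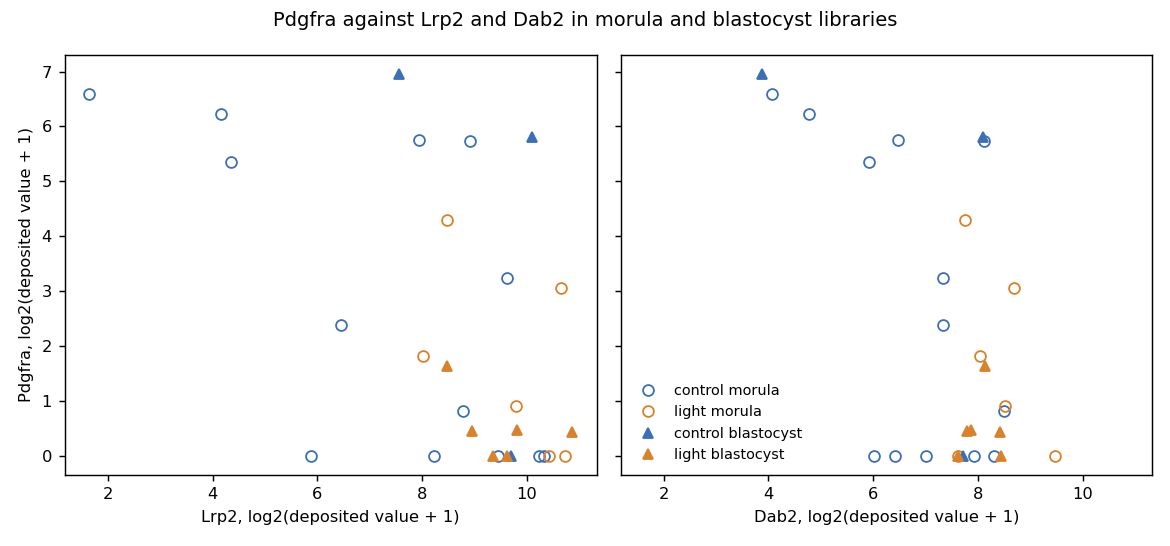
Pdgfra against Lrp2 (left) and Dab2 (right) in morulae (open circles) and blastocysts (triangles), as log2(value + 1), control in blue and light in orange, 1 point per library. Control morula 23 has the highest Pdgfra of the morulae (96.0) with Lrp2 at 2.11, and control morula 18 has Lrp2 at 1287 with Pdgfra at 0.

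The control morulae varied widely in Pdgfra and the endocytic genes, and some libraries had much of either and little of the other. Control morula 23 had Pdgfra at 96.0, Dab2 at 15.8 and Lrp2 at 2.11, the highest Pdgfra and the lowest Dab2 and Lrp2 of the 13. Control morula 20 had Pdgfra at 74.3, Dab2 at 26.3 and Lrp2 at 17.0. Control morulae 18 and 21 had Lrp2 at 1287 and 1205, Dab2 at 317 and 243, and Pdgfra at 0. Other libraries departed from this. Control morula 9 had Pdgfra at 52.0, Dab2 at 278 and Lrp2 at 484, and control morula 14 had 53.2, 88.0 and 246. Control morula 26 had Pdgfra at 0 with Dab2 at 84.9 and Lrp2 at 58.0. Cubn was at 81.2 in control morula 23 and at 84.1 in control morula 21, high beside either.

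At the 4-cell stage Gata4 was higher in the light group. It was at 129, 69.5, 223, 39.1, 64.9 and 64.0 in the control libraries and ran from 173 to 549 with a median of 303 in the light libraries. Only control 4-cell 3 reached into the light range. The log2 fold change was 1.90 (SE 0.37, adjusted p = 0.0143 by limma), and Gata4 was the 1 member called of 7 tested, where 1.45% of all genes were called and 1.12% as higher. The call held without each library in turn and in 7 of 8 other settings. Gata6 was at 29.8 to 154 in control and 6.08 to 86.1 in light 4-cell libraries (-1.11, adjusted p = 0.291). Pdgfra was at 0 in all 6 control libraries and in 4 of 8 light libraries, and at most 11.3 in the others (adjusted p = 0.259). Median values of Gata4 were 356 and 357 in control and light 2-cell libraries.

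At the 2-cell stage, sampled nearest to the exposure, Dab2 was lower in the light group. It ran from 54.8 to 133 with a median of 103 in the 7 control libraries and from 13.4 to 85.1 with a median of 38.6 in the 6 light libraries, with overlap. It fell by 1.36 on the log2 scale (SE 0.44, adjusted p = 0.0419 by limma), the 1 member called of 8 tested, where 10.5% of all genes were called and 4.96% as lower. Over all genes 920 were lower and 1024 higher, against 1936 and 605 under median ratio scaling. This share of members was near that of all genes. The call was lost in 9 of the 13 fits without a library and in 5 of 8 other settings. The summed oocyte and maternal list was 2713 to 5805 in control and 856 to 2429 in light 2-cell libraries, without overlap. Of its 12 genes 3 were called lower and 0 higher. Whether the libraries of the groups were of the same age within the 2-cell stage was not tested. Gata4, at 336 ± 112 (SD, n = 7) and 337 ± 59.4 (SD, n = 6), had a log2 fold change of 0.07 (SE 0.28). Dab2 was thus lower in light at the 2-cell stage and higher in light at the 8-cell stage, and the difference between these stages was not tested.

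From morula to blastocyst, 0 of 6 members were called in the control group, where 11.9% of all genes were, and 1 of 8 in the light group, where 20.7% were and 15.7% as lower. In the light group 2131 genes were lower and 681 higher, against 516 and 1780 under median ratio scaling and 820 and 1233 on the CPM scale. The member called was Amn, which fell by 2.44 (SE 0.64, adjusted p = 0.00617 by limma) from 1.26 to 21.8 in light morulae to 0 in 5 of 6 light blastocysts. The call was lost with edgeR (adjusted p = 0.0522) and in 1 fit over all libraries (adjusted p = 0.0717), and Amn did not pass a filter on a mean value above 5. Cubn had a log2 fold change of 1.81 (adjusted p = 0.292) in the control group and -1.51 (adjusted p = 0.165) in the light group. For Pdgfra these were 1.48 (adjusted p = 0.583) and -1.18 (adjusted p = 0.192). The basement membrane list had 6 of 11 genes called higher in this step in the control group, among them Lama1 (6.27, adjusted p = 8.6e-07) and Sparc (5.44, adjusted p = 1.24e-06), and 1 of 11 in the light group.

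A test of whether the effect of light differed between blastocysts and morulae called 0 of 8 members, where 1.57% of all genes were called. The members with the smallest p were Cubn (-3.32, adjusted p = 0.217 by limma), Amn (-1.96, adjusted p = 0.242) and Sox7 (1.09, adjusted p = 0.277). Sox7 had reads only in light blastocysts 23, 24 and 26 and passed the filter through them alone. edgeR on the recovered reads also called 0. Lama1 was called in this test (-4.73, adjusted p = 0.00158).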

How the data were processed

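Per the labels and the study's methods, polyA RNA was amplified by SMART-seq2 and sequenced in pairs of reads. The submitters' processing notes name HISAT2, HTSeq 0.9.1 and mm9. The authors deposited signal values, gene reads scaled by 1 factor per library. The methods describe RPKM, but no division by length was found: at least 99.96% of a library's values were whole reads within 0.01, and reads were recovered so. The design had been written for another unit, and the test for normalized values was used.

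limma 3.58.1 (lmFit, eBayes with trend, R 4.3.3) was run on log2(value + 1) over genes that exceeded a value of 1 in 3 or more of the fitted libraries. Calls needed a fold change of 2 or more and, after Benjamini-Hochberg adjustment, a p under 0.05. Fold changes on this scale understate those of low genes. Each library was 1 replicate. Comparisons were light against control at 5 stages, blastocyst against morula in each group, and the interaction of both. Alternatives were another pseudocount (0.1), no filter, a mean value above 5, median ratio scaling, CPM over reads outside CT010467.1 and Gm42418, edgeR 4.0.16 (quasi-likelihood, TMM) on recovered reads, 1 fit over all libraries, a block for the replicate number, and leaving out each library. Fits were tested on simulated data in which 200 genes were changed, an equal number by 4-fold and by 32-fold. Light against control in blastocysts recovered 24 of the 4-fold and 83 of the 32-fold changes. In morulae these were 22 and 75, and in the control step from morula to blastocyst 10 and 59. Most 4-fold changes were missed in every comparison simulated, so a member that was not called may still have changed.

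The members, the gene lists and the comparisons were chosen with earlier results of these data known. Named are the members, the genes of the lists called with the smallest p, and, chosen after their values were seen, Fn1, Fgf4, Fgfr1, Fgfr2, Cdx2, Krt8, Lrpap1, Grb2, Sos1 and Sparc. Transcript lengths and overlaps are from GENCODE M21 (GRCm38). The closest pair of libraries in any group differed by more than counting error (chi-square per degree of freedom of at least 6.64). A gene that the rule on likeness to the members would name is not reported here.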

Additional observations from a re-analysis of the deposited data

Results flagged for a closer look

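Within groups of 4 to 10 libraries, 10 of 59 sets of values of a member held a library far from the others by Dixon's test at 95% on log2(value + 1), and chance gives about 5%. Gata4 in light 8-cell 5 was low, at 17.1 against 66.3 to 158 in the others. Dab2 in light 8-cell 8 was low, at 4.26 against 66.4 to 112. Lrp2 in control 2-cell 9 was high, at 94.5 against 0 to 4.16, and the same library had the highest Sox17 of its group, at 7.59. Cubn in light 4-cell 14 was at 0, against 3.01 to 11.2 in the others.

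The remaining sets were single libraries with a few reads in a group otherwise at or near 0. These were Sox17 in light 2-cell 10 (3.50, 5 reads), light 8-cell 8 (0.387, 1 read) and light blastocyst 13 (4.66, 12 reads), Pdgfra in light blastocyst 15 (2.10, 4 reads) and Amn in light blastocyst 13 (2.33, 6 reads).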

How the results depend on the processing

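Of 183 alternative counts of members called, 149 were scored as unmoved. That score allows a small change, such as 2 to 3, and does not ask whether the same members were called. A count has no direction and could not turn. The 499 other alternative values include log2 fold changes of genes in comparisons where the reported fit called them, of which 0 changed sign. Members that were not called are not among these, and the sign of Gata6 in blastocysts depended on the scaling. The 3 members of the 8-cell stage and Cubn in blastocysts were called under all settings and without each library. The 2-cell count of 1 became 0 with a pseudocount of 0.1, no filter, edgeR, 1 fit over all libraries and the replicate block, and was 0 to 1 without a library. The 4-cell count of 1 became 0 in the 1 fit (adjusted p of Gata4 0.0992). The morula count of 0 became 1 (Amn) with a pseudocount of 0.1, median ratio scaling and CPM, and was 0 to 1 without a library. The blastocyst count of 2 became 1 with a pseudocount of 0.1, no filter and a mean above 5, and was 1 to 3 without a library, 3 without control blastocyst 3. Under median ratio scaling and CPM it stayed 2, as Cubn lower and Dab2 higher, and in the 1 fit as Cubn lower and Sox7 higher. From morula to blastocyst the control count of 0 became 1 in the 1 fit, and the light count of 1 became 0 with a mean above 5, which Amn did not pass, and was 1 to 2 without a library. It stayed 1 with edgeR and in the 1 fit, but as Sox7 higher in place of Amn lower. Sox7 had reads only in light blastocysts 23, 24 and 26. The causes were not tested. Replicate numbers did not pair libraries (correlations of deviations of -0.068 to 0.069), and the replicate block left the 4-cell count at 1, the morula and control step counts at 0. No paired analysis was possible because no numbers are shared at the 8-cell stage, in blastocysts or in the light step. Over all genes, the blastocyst comparison called 680 in the reported fit, 143 to 503 in other settings and 89 to 950 without a library, the lowest without control blastocyst 2. The 4-cell comparison called 218, 53 to 579, and 65 to 771 (highest without control 4-cell 3). Morulae gave 179, 90 to 761, and 82 to 240. The morula to blastocyst step in control gave 1775, 1139 to 3071, and the interaction 265, 49 to 412. The 3 control blastocysts had unlike values, which limits the precision of every blastocyst comparison.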

Other observations

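Over all 67 libraries the members did not move together. The correlation (Pearson's r on log2(value + 1)) of each member with the mean of the other members was highest for Dab2, at 0.32, and lowest for Gata4, at -0.63. The points share libraries, depth and stage, and the values are a description. Among the genes whose values were most like the mean of the members were Tbx20 (r = 0.633, Spearman's rho = 0.591), a T-box factor, Crip2 (0.630 and 0.611), Pou5f1 (0.628 and 0.570), the pluripotency factor, and Brcc3 (0.621 and 0.552), a deubiquitinase.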
